A study of Mus musculus with 3 samples.

Results

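Of the 11140 promoters in the table, 872 carried little H3K4me3 in each of 3 mouse germ cell libraries. They were chosen by their raw counts, as rows with fewer than 83 counts in leptotene/zygotene spermatocytes (LZ), fewer than 136 in pachytene/diplotene spermatocytes (PD) and fewer than 165 in elongating spermatids (ES). The cells came from testes of adult C57BL/6J mice, dissociated with collagenase and then trypsin, with no other treatment or genotype in the labels. Chromatin was cut with micrococcal nuclease and precipitated with the same H3K4me3 antibody at each stage. There was 1 library per stage, so no difference between stages has a replicate check or a p-value. The sources used here give neither the number of animals nor the way the stages were separated.

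Trimethylation of lysine 4 of histone H3 is placed at promoters by methyltransferases of the SET1 and MLL families, and most strongly at active genes and at CpG islands. A promoter with little of the mark is, in general, one that is silent or poor in CpG, though a weak mark alone does not show that a gene is off. LZ cells are in early meiotic prophase, when chromosomes begin to pair and recombine, and PD cells are in its later part, when transcription is high. ES cells are haploid, are replacing histones with protamines and are shutting down transcription.

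The promoters are listed under numbered locus identifiers of the form that a transcript assembly gives. None of the 11140 identifiers (0 matches) was found in a mouse RefSeq gene table. Gene names, chromosomes and sequences are therefore not analysed here, and the labelled cell stages could not be checked against marker genes. Counts over all listed promoters summed to between 1654906 in LZ and 17989325 in ES, with 4826890 in PD. Levels are given in CPM, counts per 1000000 of these totals, so each level is a share of the marking over the listed promoters. With 0 counts, a level of up to 3 counts is allowed: 1.81 CPM for LZ, 0.622 CPM for PD and 0.167 CPM for ES. All intervals are exact 95% intervals of counting error, which may be too narrow because reads copied by PCR are not independent molecules.

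The 872 weakly marked promoters held 1.04% of the LZ counts, 0.431% of the PD counts and 0.469% of the ES counts, although they were 7.83% of the promoters. In LZ their counts ran from 0 to 82, with a median of 13, against a median of 56 over all promoters. In PD they ran from 0 to 134, again with a median of 13, against 58 over all. In ES they ran from 8 to 164, with a median of 98, against 873 over all. Relative to the typical promoter, they were thus lowest in ES, where the median was 0.112 times that of all promoters, and less low in LZ (0.232 times) and PD (0.224 times). These values chose the promoters and are given as a description.

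**Figure D1:**
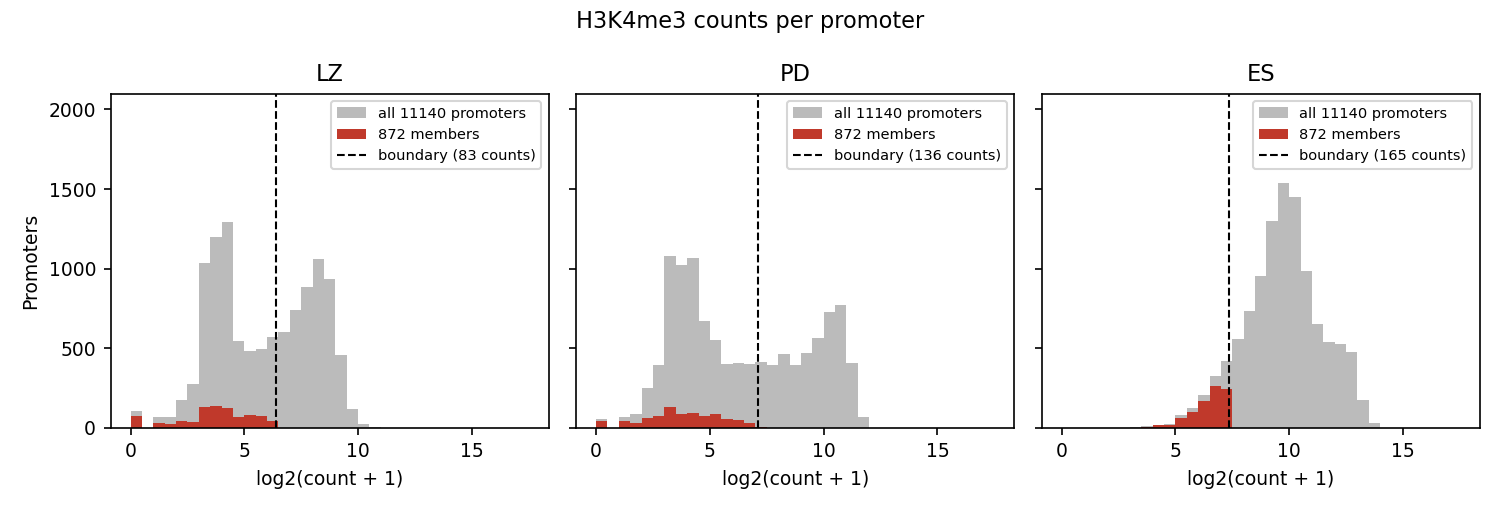
Histograms of log2(count + 1) in the LZ, PD and ES libraries for all 11140 promoters (grey) and for the 872 weakly marked promoters, called members (red), with the count boundary of each library as a dashed line. In ES the members fill most of the lowest 10%, while in LZ and PD they are a small part of the large group of low promoters.

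The 3 boundaries were not equally strict. The ES boundary, at 9.17 CPM, took the lowest 9.96% of promoters, while the LZ boundary, at 50.2 CPM, admitted 55.4% and the PD boundary, at 28.2 CPM, admitted 58.7%. Membership therefore turned mainly on ES. By rank, all 872 were in the lowest 10% of ES, but only 245 (28.1%) were in the lowest 10% of LZ and 256 (29.4%) in that of PD. The lowest 10% of every library held 167 of them (19.2%). At the other end, 61 lay above the LZ median and 102 above the PD median, and 8 lay above both. "Little" thus describes all of them in ES and most, not all, of them in spermatocytes.

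Most promoters that were weak in ES were also low in spermatocytes, but most that were low in spermatocytes were not weak in ES. Of the 1110 promoters under the ES boundary, 872 (78.6%) were also under the LZ and PD boundaries, while 47.9% of all promoters met those spermatocyte conditions. Read the other way, the 872 were 16.4% of the 5331 promoters that were low in both spermatocyte libraries. The other promoters under the ES boundary were 157 that were high in LZ only, 62 that were high in PD only and 19 that were high in both. Those 19 were 0.506% of the 3756 promoters high in both spermatocyte libraries. All 3 libraries entered the choice, so these shares carry no test.

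Few promoters sat close to the LZ and PD boundaries, and many sat close to the ES boundary. Within 10% below the ES boundary there were 102 weakly marked promoters, and 91 promoters that met the other conditions lay within 10% above it. The corresponding numbers were 18 and 17 at the LZ boundary and 8 and 8 at the PD boundary. Just inside the ES boundary, 9 promoters had 164 counts (9.12 CPM), and just outside it 12 had 165 counts (9.17 CPM). Just inside the LZ boundary, 2 promoters had 82 counts, and 4 had 83 just outside. In PD, 1 promoter had 134 counts inside and 3 had 136 outside.

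The weakly marked promoters differed widely among themselves, within limits in CPM that the boundaries set wider in LZ and PD than in ES. From the 10th to the 90th percentile, levels ran from 0.604 to 31.4 CPM in LZ, from 0.207 to 13.1 CPM in PD and from 2.33 to 8.39 CPM in ES. The variance of the counts was 18.9 times the mean in LZ, 31.9 times in PD and 16.2 times in ES, where counting error alone would give 1. No promoter in the table had 0 counts in ES. Among the 872, 73 had 0 counts in LZ and 46 had 0 in PD, out of 108 and 56 in the whole table. A count of 0 meets the LZ and PD conditions by itself. Depth differed between the libraries. Had each been sampled down to the LZ total, the expected numbers with 0 counts would be 73 in LZ, 116 in PD and 9.38 in ES among the weakly marked promoters, out of 108, 276 and 12.3 in the whole table.

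Rank in one spermatocyte library went with rank in the other, but hardly with rank in ES. Across the 872 promoters, the Spearman rho was 0.42 between LZ and PD, 0.06 between LZ and ES and 0.12 between PD and ES. Over all promoters the rho was 0.78, 0.22 and 0.21 in the same order, and in the 4459 promoters low in LZ and PD only it was 0.48, 0.13 and 0.09. The corresponding Pearson r over the 872 on log2(CPM + 1) was 0.44, 0.13 and 0.15. Promoters are not independent replicates, and the boundaries cut the range of each library, so these coefficients are descriptions. The 218 promoters with the fewest LZ counts had a PD median of 2 counts and an ES median of 86. The 218 with the most LZ counts had a PD median of 15 and an ES median of 93. Sorting by ES into 4 groups of 218 gave LZ medians of 11.5, 14, 13 and 13 from the lowest to the highest group. The LZ level thus hardly differed with the ES level among these promoters.

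From early to later meiotic prophase, the weakly marked promoters took a smaller share of the marking. Their mean level was 11.9 CPM in LZ (interval 11.7 to 12.1) and 4.94 CPM in PD (4.87 to 5.01), a ratio of PD to LZ of 0.415 (0.406 to 0.423). The boundaries cap their levels at 50.2 CPM in LZ but at 28.2 CPM in PD, so this ratio is in part built into the choice. A rule of size called a promoter higher or lower. It required a change of 2-fold or more, after adding 1 count on average to each library in proportion to its total, and 20 or more counts in either library. By that rule, 56 of the 497 weakly marked promoters with enough counts (11.3%) were higher in PD, against a background of 16.1% of all promoters. A larger number, 237 (47.7%), were lower in PD, against 40.9% of all promoters. The balance depended on the scaling. Of the weakly marked promoters counted as higher or lower, the higher ones made up 19.1% under library totals, 34.8% under TMM and 47.0% under median-of-ratios scaling.

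All promoters also had lower levels in PD at the median. On the log2 scale, the median ratio of PD to LZ was -1.25 for the weakly marked promoters and -0.99 for all promoters, a difference of -0.26. That difference was -0.33 under TMM and -0.36 under median-of-ratios scaling. Scaling shifts all promoters alike apart from the added counts, so such a difference can move only through those. With counts of 0 set to the floor of 3 counts, and promoters at or under the floor in both libraries left out, the median over the remaining 752 was -1.54, against -1.03 for all promoters. The promoters that were low in LZ and PD but not in ES, 4459 in number, had a median log2 ratio of -1.51. The drop of the weakly marked promoters was thus no larger than that of these other low promoters.

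From PD to ES, the typical weakly marked promoter took a larger share under library totals and TMM, but not under median-of-ratios scaling. The direction of the summed share also depended on the scaling. The mean level was 5.38 CPM in ES (5.34 to 5.41), and the ratio of the summed levels, ES to PD, was 1.09 (1.07 to 1.11), or 0.12 on the log2 scale. That sum turned to -0.32 under TMM and -1.20 under median-of-ratios scaling, and was 3.61 for the 167 promoters in the lowest 10% of every library. Those 167 have fewer than 7 PD counts by their choice, which by itself raises the value. The median log2 ratio of the weakly marked promoters was 0.93 (0.94 with counts of 0 set to the floor), against 1.25 for all promoters. By the rule of size, 423 of 859 (49.2%) were higher in ES, against a background of 52.2%, and 133 (15.5%) were lower, against 29.7%. The direction depended on the scaling: the median was 0.50 under TMM and -0.35 under median-of-ratios scaling, where all promoters had a median of -0.05. The higher ones made up 76.1% of those called under library totals, 63.0% under TMM and 38.4% under median-of-ratios scaling. Set against all promoters, the difference was -0.32 under library totals, -0.32 under TMM and -0.30 under median-of-ratios scaling. Because scaling shifts all promoters alike apart from the added counts, these values were bound to be close. The ES boundary caps the ES level of these promoters at 9.17 CPM.

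Between the earliest and latest stages, the weakly marked promoters had a lower summed share in ES. The ratio of the summed levels, ES to LZ, was 0.452 (0.444 to 0.459), or -1.15 on the log2 scale. This turned to 2.10 for the 167 promoters in the lowest 10% of every library, of which 129 were higher and 0 lower by the rule of size. Those 167 have fewer than 8 LZ counts by their choice, which by itself raises the ratio. Only ES can bring them to the minimum count. The median log2 ratio of the weakly marked promoters was -0.50 (-0.54 with counts of 0 set to the floor), against 0.20 for all promoters. The difference was -0.70, and also -0.70 with either TMM or median-of-ratios factors. Again, scaling could move it only through the added counts, so this sameness is no check. By the rule of size, 163 of 862 (18.9%) were higher in ES, against a background of 40.2%, and 331 (38.4%) were lower, against 34.5%. ES counts under the boundary chose the promoters, which by itself lowers this ratio. The 4459 promoters that were low in LZ and PD but not in ES had nearly the same LZ median, 14 counts against 13, and the same pattern in PD, 14 against 13. Their ES median was 939 counts against 98, and 3593 of them (80.6%) were higher in ES than in LZ. The ES boundary itself divides these promoters, so their ES values are a description. In the low tail of LZ they differed, with at most 3 counts in 17.3% of the weakly marked promoters and 3.57% of the 4459.

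**Figure D2:**
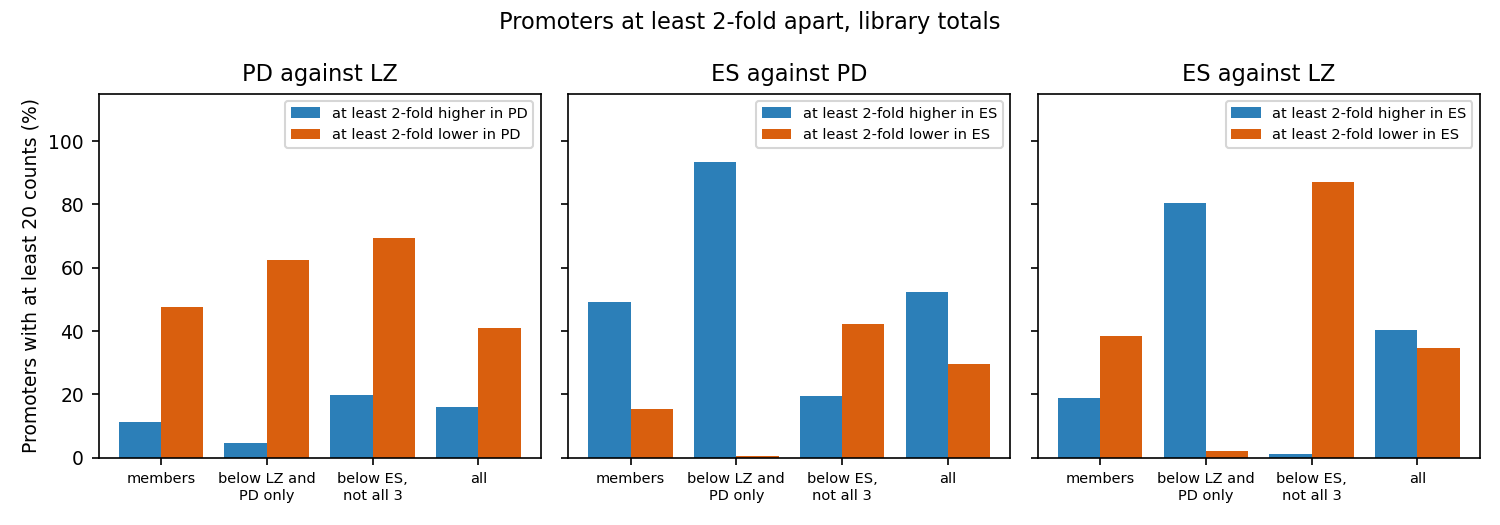
Percentage of promoters with at least 20 counts that were at least 2-fold higher (blue) or lower (orange) in each pair of libraries, with library totals, for the 872 weakly marked promoters (members), the 4459 promoters below the LZ and PD boundaries only, the 238 below the ES boundary but not all 3, and all promoters. The shares of the members in PD against LZ, 11.3% and 47.7%, lie near those of all promoters, and the members lack the rise in ES that the 4459 other low promoters show, which follows from how the groups were chosen.

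The weakly marked promoters were then sorted by the stage at which they were highest. Of the 864 with at least 20 counts in some library, 242 (28.0%) stood 2-fold or more above both other libraries in LZ, against a background of 13.1% of all promoters. Their median counts were 41, 13 and 84 for LZ, PD and ES, or 24.8, 2.69 and 4.67 CPM. A further 146 (16.9%) were highest in ES, against 36.1% of all promoters, with median levels of 0.604, 0.311 and 5.64 CPM, in the same order. Those highest in PD numbered 45 (5.21%), against 8.82%, with a median PD level of 17.2 CPM, while the LZ median was 4.23 CPM. Sorted by the stage at which they were lowest, 324 (37.5%) were 2-fold or more below both other libraries in PD, against 40.5% of all promoters. The corresponding number in ES was 75 (8.68%), against 21.9%, and in LZ it was 51 (5.90%), against 4.86%. The 51 had medians of 0, 2 and 82 counts for LZ, PD and ES, or 0, 0.414 and 4.56 CPM. Their PD median thus lay under the 1.81 CPM allowed at 0 LZ counts, and ES alone could meet the minimum count. All promoters lowest in LZ had medians of 13, 278 and 706 counts, so these shares compare unlike promoters. In 118 promoters (13.7%) no pair of libraries was 2-fold apart, against 6.13% of all promoters, and their medians were 6.65, 5.80 and 5.84 CPM. The boundaries in CPM allow a higher level in LZ than in PD or ES, so the excess of promoters highest in LZ is in part built into the choice.

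**Figure D3:**
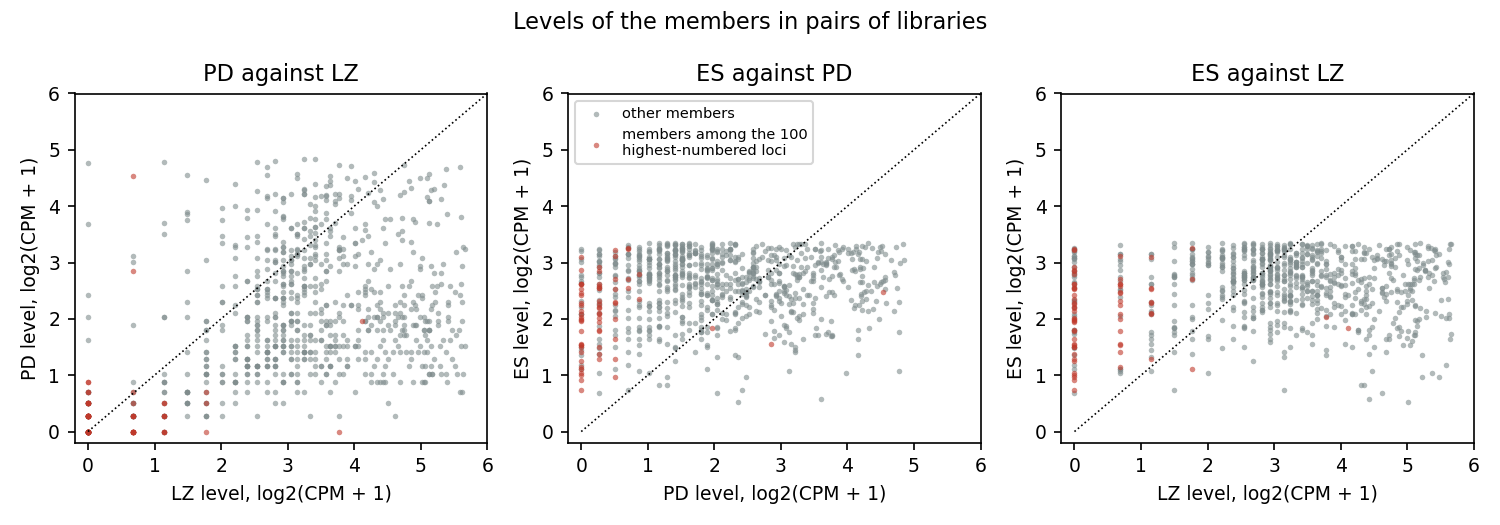
Levels of the 872 weakly marked promoters in each pair of libraries, as log2(CPM + 1), with the line of equal levels dotted. Points along the left edges have no counts in the library on the x axis. Red points are the 67 members among the 100 highest-numbered loci, most of which have almost no LZ or PD counts but do have ES counts.

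Single promoters show the extremes of these patterns, and the files pair none of them with a gene. The promoter of locus MSTRG.26663 was at 0 counts in the LZ library, at 127 in PD and at 43 in ES. At 26.3 CPM (21.9 to 31.3), PD was 14.5-fold above the LZ floor of 3 counts, while the exact interval of the ratio starts at 11.6. MSTRG.26663 was thus close to the PD boundary, and its ES level was 2.39 CPM. The promoter of locus MSTRG.7076 went the other way, with 80 LZ counts, 3 PD counts and 55 ES counts. Its level fell from 48.3 CPM in LZ to 0.622 CPM in PD, 77.8 times lower (25.7 to 385), and was 3.06 CPM in ES.

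The promoter of locus MSTRG.18356 was seen in ES alone, with 151 ES counts against 0 in LZ and 0 in PD. At 8.39 CPM (7.11 to 9.84), ES was 13.5-fold above the PD floor of 3 counts, while the exact interval of the ratio starts at 10.8. The promoter of locus MSTRG.6662 was marked mainly in PD, with 128 PD counts against 2 in LZ and 20 in ES. Its level fell from 26.5 CPM in PD to 1.11 CPM in ES, 23.9 times lower (14.8 to 40.4). The lowest summed level belonged to locus MSTRG.27265, with 0, 0 and 12 counts in LZ, PD and ES. The highest belonged to locus MSTRG.23569, with 78, 120 and 110 counts, or 47.1, 24.9 and 6.11 CPM. These 6 promoters were picked as extremes by the same counts, so their ratios may be too large.

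The weakly marked promoters were unevenly spread over the locus numbers, a feature that the choice did not use. The rows of the table come in 4 blocks of locus numbers, in the order 1 to 1617, 13213 to 26276, 1619 to 13210 and 26284 to 27289. In the first 3 blocks, 7.57%, 6.65% and 7.55% of the listed promoters were weakly marked. In the last block the share was 19.2% (interval 16.3 to 22.4, treating promoters as independent), or 128 of 667. Their medians in that block were 1 count in LZ, 2 in PD and 74 in ES, against 14 to 16, 14 to 15 and 101 to 106 in the other blocks. The files name no chromosome, so whether the blocks are groups of chromosomes, and whether the last one holds the sex chromosomes, was not tested.

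At the very end of the numbering, weak marking was the rule. Of the 100 highest-numbered promoters, from 27142 to 27289, 67 were weakly marked (67.0%), which was 7.68% of all weakly marked promoters. They included an unbroken run of 24 listed loci, from 27217 to 27260. In that run the LZ counts were 0 to 2, the PD counts 0 to 3, and the ES counts 16 to 119 with a median of 48. Runs of 10, 9 and 6 lay next to it, while elsewhere the longest runs were of 4. The 33 other promoters among those 100 were also nearly unmarked in spermatocytes, with medians of 2 counts in LZ and 3 in PD, and had an ES median of 262 counts.

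The 67 promoters at the end of the numbering had their highest mean level in ES, and the other 805 had theirs in LZ. Their mean level was 0.830 CPM in LZ (0.669 to 1.02), 0.649 CPM in PD (0.564 to 0.743) and 3.67 CPM in ES (3.57 to 3.78). ES was thus 4.43 times LZ (3.60 to 5.50), whereas in the other 805 promoters ES was 0.430 times LZ (0.423 to 0.437). Nearly all of the 67, 62 of them, had at most 3 LZ counts, and could pass the minimum count through ES alone. The median log2 ratio of ES to LZ was 3.42 with the added count and 1.40 with counts of 0 set to the floor. In the 33 other promoters of the last 100 loci, ES was 5.85 times LZ (5.02 to 6.87). In the 4459 promoters low in LZ and PD only, ES was 9.04 times LZ. All promoters in both groups had 165 or more ES counts, so not under the ES boundary, which by itself raises their ratios. These ratios are a description, and whether the higher ES level is particular to the 67 was not tested. Leaving out the end of the numbering took the count of weakly marked promoters higher in ES than in LZ from 163 to 106. The rho between LZ and PD also fell, from 0.42 to 0.29. This end was picked after its values were seen, 1 library stands behind each stage, and the difference was not tested.

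**Figure D4:**
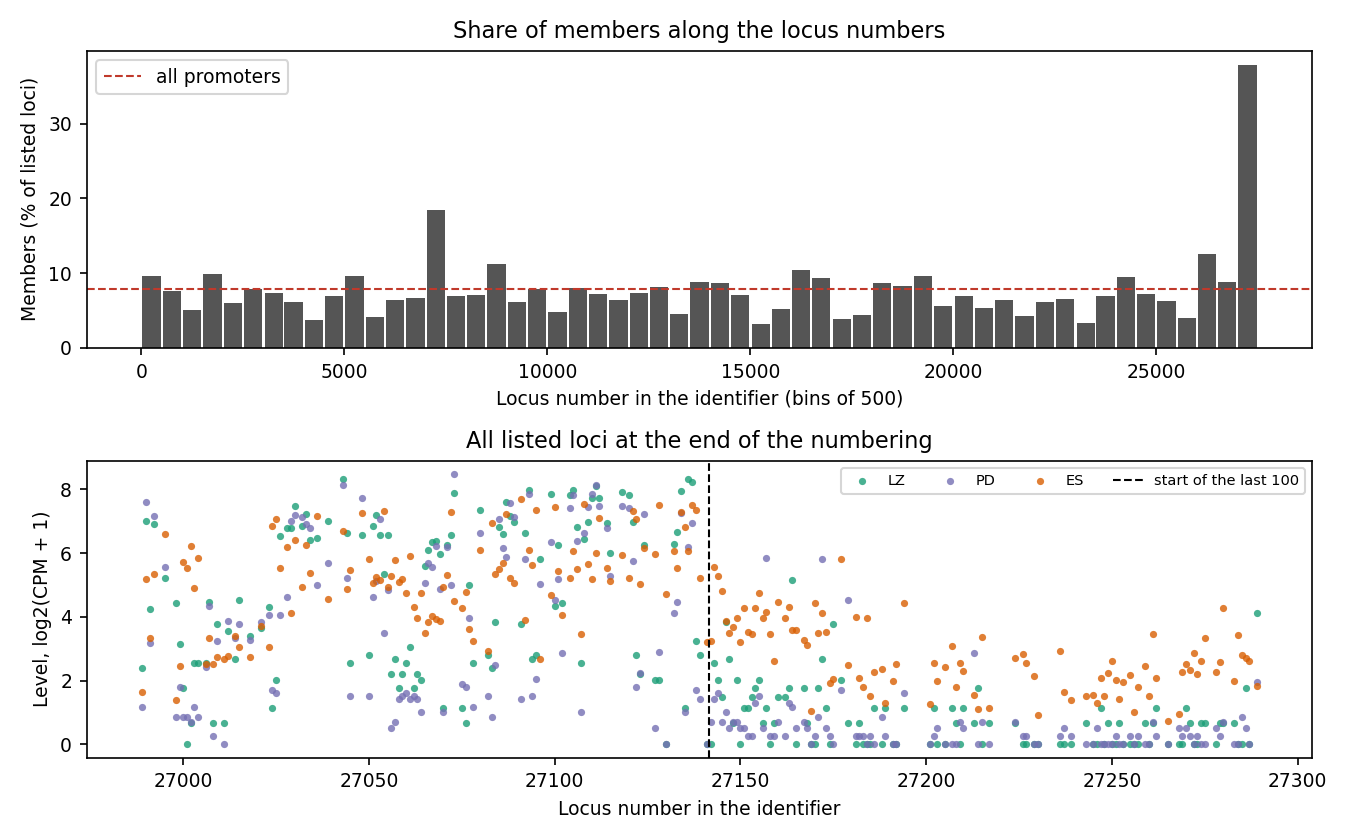
Top, percentage of listed loci that are weakly marked promoters (members) in bins of 500 locus numbers, with the value over all promoters as a dashed line. Bottom, levels as log2(CPM + 1) of every listed locus at the end of the numbering in LZ, PD and ES. The last bin reaches 37.9%. At most of the last 100 loci the LZ and PD levels are close to 0 and the ES level lies above them, while at a few loci LZ or PD lies above ES.

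A second stretch stood out in the same way. Between loci 7001 and 7497, 37 of 200 listed promoters (18.5%) were weakly marked, with medians of 1 count in LZ, 2 in PD and 92 in ES. In the other bins of 500 numbers up to 27000, the share ran from 3.24% to 12.6%, and the median over all of these bins was 6.98%. The weakly marked promoters with at most 3 counts in both LZ and PD gather in these places. There were 120 of them, or 64.9% of the 185 such promoters in the whole table. Where the rest of the 185 lie was not examined. Of the 120, 58 were among the last 100 loci, 21 lay between 7001 and 7497, and 41 were spread over 19 bins. The mean levels of the 120 were 0.458 CPM in LZ (0.369 to 0.563), 0.221 CPM in PD (0.184 to 0.263) and 4.30 CPM in ES (4.22 to 4.39). The LZ and PD counts picked the 120, which by itself sets those levels low against ES, so the levels are a description. The sources used here do not give how reads with several matches in the genome were counted, or whether ES was processed like the other libraries. The part of either in this was not tested.

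Away from the end of the numbering, weakly marked promoters were only loosely grouped. The next listed locus was also weakly marked in 17.1% of cases over the whole table. Without the last 100 loci it was 11.8%, against a share of 7.29% of those promoters. That value still includes the stretch from 7001 to 7497, whose part in it was not tested. Most of the 723 runs, 638 of them, held a single promoter. Promoters next to a weakly marked one, but not themselves chosen, had lower medians than the rest. Without the last 100 loci, these medians were 40 counts against 79 in LZ, 52 against 87 in PD and 800 against 983 in ES.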

How the data were processed

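The authors deposited raw counts, not normalized, for 11140 promoters in 3 libraries, and the columns were matched to the libraries by the description label. The submitters' processing notes name Trim Galore and STAR, with no version, and the mm10 build. Neither the counting tool nor the placement of the windows is given in the sources used here. Boundaries of 83, 136 and 165 counts chose the promoters. The members, comparisons and lists were chosen with earlier results of these data known. Levels were scaled by totals over all listed promoters. Ratios had added counts in proportion to library size, averaging 1 over the 3 libraries. Summed levels have exact Poisson intervals, their ratios exact conditional intervals and shares Clopper-Pearson intervals. Scaling alternatives used TMM factors (edgeR 4.0.16) and median-of-ratios factors (DESeq2 1.42.0), without their tests, as each stage has 1 library. The named loci were the first in each direction from LZ to PD and from PD to ES, ranked by the interval bound nearest to 1, and those with the lowest and highest summed CPM. The rule of size was checked on simulated counts. Python 3.11.15, scipy 1.17.1 and R 4.3.3 were used.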

Additional observations from a re-analysis of the deposited data

How the results depend on the processing

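No paired analysis was possible because a stage comprises only 1 library. No replicate could be left out either. The number of weakly marked promoters was 518 with all boundaries lowered by 0.5 on the log2 scale and 1362 with them raised by it. It was 167 for the lowest 10% of each library, 437 with the ES boundary applied in CPM to all libraries and 805 without those among the last 100 loci, a setting added after the data were seen. Counts move here by the construction of each setting, and scaling changes them by setting another ratio as unchanged.

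For PD against LZ, 112 were higher under TMM and 166 under median-of-ratios scaling, 101 without a minimum count and 22 at 4-fold. With no minimum, 479 were lower, and 362 with a minimum of 10. Using median-of-ratios factors for ES against PD, 207 were higher and 332 lower. TMM factors gave 200 lower there, and 4-fold gave 247 higher and 48 lower. ES against LZ had 98 higher and 178 lower at 4-fold, and 106 higher without the last 100 loci. The stricter choice of 167 promoters left 0 higher and 0 lower for PD against LZ, where none can reach the minimum count. It left 159 higher and 0 lower for ES against PD. There only ES can reach the minimum count, and the low PD counts allow none to be called lower. For ES against LZ it left 0 lower, and again only ES can reach the minimum count.

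The log2 ratio of summed counts for PD against LZ, -1.27 as reported, was -0.55 with TMM and -0.087 with median-of-ratios factors. It was -1.52 for the 167 promoters and -1.63 without the 10% of promoters with the most counts. For ES against PD, 0.12 as reported, the sign turned with TMM (-0.32) and median-of-ratios factors (-1.20). It was 3.61 for the 167 promoters, whose PD counts are capped far lower. It was 0.45 without the most counted 10% and 0.060 without the last 100 loci. For ES against LZ, -1.15 as reported, the sign turned for the 167 promoters (2.10), whose LZ counts are capped far lower. It was -0.87 with TMM, -1.28 with median-of-ratios factors, -0.999 without the most counted 10% and -1.22 without the last 100 loci. LZ had the lowest total, and 17.3% of the weakly marked promoters had at most 3 LZ counts. The share was nearly the same in PD, 17.2%, although its total was larger.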
